A study of Mus musculus with 10 samples.

Results

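The nuclear-encoded genes of the respiratory chain were described across 4 RNA-seq libraries of mouse renal proximal tubule cells. Members were the genes whose symbol starts with Nduf, Uqcr, Atp5 or Cox followed by 4 to 8, and Sdha, Sdhb, Sdhc and Sdhd. This rule took 92 of 46509 genes, after 4 pseudogene symbols had been left out, and it used no measured value. To be called measured, a gene needed to reach an FPKM of 1 in some library and to have no value of exactly 0, which held for 87 members among 12127 measured genes. FPKM is the number of sequenced fragments per kilobase of transcript, scaled to the size of the library, so levels of different genes are compared per length below. The rule reaches symbols and not function. It takes 7 Ndufaf assembly factors as well as Atp5s and Atp5sl, which are no subunits and are set beside complex V by their symbols only. Cox7a2l, a factor of supercomplex assembly, is counted with complex IV. The rule does not take Cyc1, the cytochrome c1 gene of complex III. Ndufa4 and Ndufa4l2 are grouped with complex I by their symbols in all counts and medians below, although Ndufa4 is also a complex IV subunit.

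All libraries came from conditionally immortalized proximal tubule cells of mixed strain, from a cross of the Immorto-mouse to N2 FVB mice labelled TbRII floxed, and per the labels' protocols cells were transfected at 33 °C and later kept at 37 °C with interferon gamma withdrawn. Library 8 received FoxO1 siRNA, library 9 is labelled FoxO3 siRNA, library 10 received siRNA to both FoxO1 and FoxO3, and library 7 received scramble siRNA. These 4 were all given 100 uM H2O2 and Wnt3a at 20 ng/mL, so oxidative stress and Wnt3a are common to every comparison, and each group is 1 library. A difference below therefore has no replicate check and no test, and the 3 comparisons share library 7. Libraries 1 to 6 enter for 4 members only. They are single libraries without siRNA and without H2O2, with Wnt buffer (1) or Wnt3a (2), with Wnt3a and scramble siRNA (3) or both siRNAs (4), and with H2O2 and no siRNA, where the Wnt entry is empty (5) or names Wnt3a (6). FoxO1 and FoxO3 are forkhead transcription factors.

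The respiratory chain passes electrons from NADH through complex I, or from succinate through complex II, to ubiquinone, on to complex III and cytochrome c, and finally through complex IV to oxygen, while complexes I, III and IV pump protons across the inner mitochondrial membrane. Complex V, the ATP synthase, lets the protons flow back and makes ATP. Most subunits are encoded in the nucleus and imported, whereas a small set of membrane subunits is encoded in mitochondrial DNA. Proximal tubule cells are rich in mitochondria and rely on this chain to power the reabsorption of filtered solutes.

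Foxo1 stood at an FPKM of 3.66 in library 8, 8.54 in library 9 and 4.67 in library 10, against 7.92 in library 7. Foxo3 stood at 17.7, 19.9 and 17.4 in libraries 8, 9 and 10, against 19.7 in library 7. Foxo3 was therefore not reduced in library 9, which is called by its label throughout, and in library 10 it was about as low as in library 8, which had no FoxO3 siRNA. Of 16 proximal tubule markers, 7 reached FPKM of 1 in at least 1 library and 2 were at 0 in all 4. Their summed FPKM was 265, 286 and 271 in libraries 8, 9 and 10, against 274 in library 7. Pax8, a transcription factor of the renal epithelium, and Lrp2, the endocytic receptor megalin, were present, whereas the organic anion transporters Slc22a6 and Slc22a8 were at 0 in all 4 libraries and the phosphate transporter Slc34a1 did not pass 0.0139. None of 7 distal nephron and none of 5 endothelial markers reached 1, while 2 of 5 leukocyte, 2 of 5 podocyte and 1 of 5 fibroblast markers did. Summed over its list, FPKM in libraries 8, 9 and 10 was 7.24, 7.51 and 7.46 for leukocytes, against 7.70 in library 7. It was 25.6, 25.6 and 29.4 for podocytes, against 32.7 in library 7, most of it the cytoskeletal gene Synpo, and 6.38, 7.70 and 7.15 for fibroblasts, against 6.27. The part of these genes in the results was not tested. Total fragments per library are not known. Weakly expressed genes put the depth of libraries 8, 9 and 10 at roughly 0.883, 0.922 and 0.911 of that of library 7. In bulk RNA, fewer cells of a type and less RNA per cell cannot be told apart.

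The regulatory sequence in front of the members is shown first, because the siRNAs target transcription factors. RefSeq promoters on GRCm38.p6, from 250 bases before to 50 after an annotated start, were found for 76 of the 92 members and were searched on both strands for 5 motifs. GCATGCGC, the core bound by nuclear respiratory factor 1 (NRF1), lay in 15.8% of the members' promoters, against 6.37% of those of measured genes and 3.05% of all genes. AAGATGGC, a YY1 motif, lay in 14.5% of members, against 5.65% and 3.19%. CAAGGTCA, the motif of the oestrogen-related receptors (ERR), lay in 5.26%, against 1.22% and 1.76%, and CCGGAAGT, the ETS motif that GABP binds, in 6.58%, against 9.99% and 4.31%. GTAAACA, the forkhead motif to which FoxO factors bind, lay in 3.95% of members, against 2.98% of measured and 4.05% of all genes. A match is a description of letters, not a site in use, and no test was made of these shares.

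The forkhead motif was found in 3 members, which are all shown, since FoxO1 and FoxO3 were the targets. The capitals mark GTAAACA or, where it lies on the other strand, TGTTTAC, and the sequences run 5′ to 3′ on the gene's strand.
Cox7a2 (chr9:79760019-79760103, minus strand): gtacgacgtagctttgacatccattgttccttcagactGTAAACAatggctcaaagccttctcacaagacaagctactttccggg
Atp5sl (chr7:25619383-25619463, plus strand): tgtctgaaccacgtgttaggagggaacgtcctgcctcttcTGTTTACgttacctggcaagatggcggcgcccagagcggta
Ndufaf1 (chr2:119662859-119662945, minus strand): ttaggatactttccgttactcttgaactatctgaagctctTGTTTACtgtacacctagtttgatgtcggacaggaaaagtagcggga
In these 3 windows the motif starts 212 bases before the annotated start in Cox7a2 and 71 before it in Ndufaf1, while in Atp5sl it lies within the first transcribed bases.

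The NRF1 and YY1 motifs are shown in the members of highest FPKM that hold them, as examples of the letters found most often. In Cox6a1 and Atp5k the NRF1 core is present on both strands, because GCATGCGC overlaps its own reverse complement GCGCATGC. The capitals mark the motif, which in Atp5f1 lies on the other strand and so reads as its reverse complement.
Cox6a1 (chr5:115349073-115349160, minus strand): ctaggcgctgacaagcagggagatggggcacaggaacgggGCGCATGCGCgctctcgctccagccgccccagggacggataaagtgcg
Atp5k (chr5:108434402-108434489, minus strand): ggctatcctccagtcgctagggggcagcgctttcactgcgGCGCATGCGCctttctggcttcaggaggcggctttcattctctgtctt
Atp5j (chr16:84835017-84835104, minus strand): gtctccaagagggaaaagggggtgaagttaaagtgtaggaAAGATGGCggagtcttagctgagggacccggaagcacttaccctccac
Atp5f1 (chr3:105959219-105959306, minus strand): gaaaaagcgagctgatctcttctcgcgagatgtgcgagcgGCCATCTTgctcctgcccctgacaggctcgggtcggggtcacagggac
The NRF1 motif was held by 12 members and the YY1 motif by 11. Of the 11 with YY1, 7 encode complex I subunits, 3 ATP synthase subunits, and the remaining gene is Atp5sl.

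The 3 promoters with a forkhead motif can be set beside their genes' levels. Cox7a2, a complex IV subunit, had an FPKM of 130 in library 8, 144 in library 9 and 132 in library 10, against 135 in library 7. Ndufaf1, a complex I assembly factor, had 10.8, 10.9 and 8.61, against 10.4 in library 7. Atp5sl had 12.1, 10.4 and 12.2, against 12.4 in library 7. Their ratios ran from -0.25 to 0.09, where a ratio here and below is log2((a + 1)/(b + 1)) of the FPKM in a library over that in library 7, written 8/7, 9/7 and 10/7. The median ratio of 12 members with the NRF1 motif was -0.002, 0.02 and -0.01, against -0.02, 0.0004 and 0.01 in 61 members without it. The 11 with the YY1 motif had -0.004, 0.045 and 0.056, against -0.025, -0.002 and -0.002 in 62 without it, and the 5 with the ETS motif had -0.04, 0.12 and 0.08, against -0.01, 0.006 and 0.005 in 68 without it. The 4 with the ERR motif had -0.040, -0.002 and -0.014, and the 3 with the forkhead motif -0.03, 0.06 and -0.04. None of these differences was tested.

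The respiratory chain genes were among the abundant transcripts of these cells. Their median FPKM in library 7 was 85.2, against 14.8 over all measured genes. Of the 87 measured members, 76 lay above the median measured gene and 45 in the top decile. Summed over members, FPKM was 10491 in library 8, 10795 in library 9 and 10673 in library 10, against 10649 in library 7. That sum is 2.06%, 2.13% and 2.09% of all FPKM in libraries 8, 9 and 10, against 2.09% in library 7. The members' annotated transcripts are short, with a median length of 635 bases against 1319 over all measured genes. A gene's length here is the median over all its annotated transcripts, so it need not be that of its main mRNA. FPKM of short transcripts depends more on how fragment length was modelled.

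The complexes differed in level. The median FPKM in libraries 8, 9, 10 and then 7 was 69.4, 72.2, 71.5 and 73.9 for the 38 complex I genes. It was 54.6, 60.9, 57.6 and 55.2 for the 4 complex II genes, and 104, 109, 97.6 and 115 for the 8 complex III genes. The 13 measured complex IV genes had 134, 144, 147 and 135, and the 15 complex V genes 194, 201, 203 and 197. Complex II was thus the lowest and complex V the highest in every library. The complex I assembly factors were far lower, at 9.82, 9.24, 8.61 and 9.25. The members lie on 19 chromosomes.

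**Figure D1:**
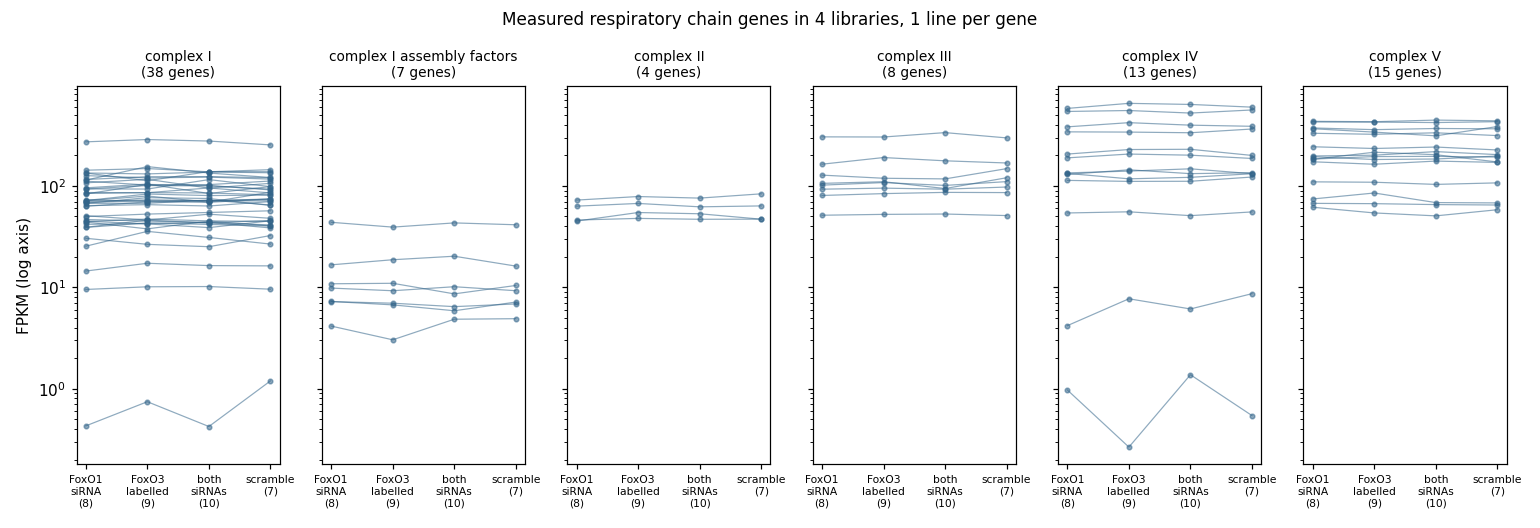
FPKM (log axis) of the measured members by complex, with 1 line per gene through library 8 (FoxO1 siRNA), library 9 (labelled FoxO3 siRNA), library 10 (both siRNAs) and library 7 (scramble siRNA). The lines run nearly level, and the exceptions lie at the bottom of complexes I and IV, where Ndufa4l2, Cox6a2 and Cox6b2 stand under an FPKM of 10.

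The comparisons asked whether transcripts of the chain change with FoxO siRNA in cells under H2O2 and Wnt3a. They differed little. A gene was counted past the limit at a ratio of 0.58 either way, about 1.5-fold. In 8/7, 0 of 87 members were higher past it, against 0.924% of all measured genes, and 2 were lower, Cox6b2 and Ndufa4l2, against 0.792%. In 9/7, 0 were higher, against 1.7% of all measured genes, and 0 were lower, against 1.84%. In 10/7, 1 was higher, Cox6a2, against 1.04%, and 1 was lower, Ndufa4l2, against 0.874%. Cox6a2 reached the FPKM of 1 in library 10 alone and Ndufa4l2 in library 7 alone, so the library that made each of them count as measured is also the one in which it is high. These counts are near the shares of all genes, and the 3 genes past the limit all stood under an FPKM of 10. Of the 74 members with FPKM of 20 or more in library 7, 0 passed in any comparison, where 0.0991% of such genes passed in 8/7, 1.09% in 9/7 and 0.238% in 10/7.

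The median ratio of the members was -0.018 in 8/7, 0.007 in 9/7 and 0.005 in 10/7, against -0.006, -0.017 and -0.016 over all measured genes. By complex the medians ran from -0.08, for complex III in 8/7, to 0.06, for Atp5s and Atp5sl in 8/7. Among members with FPKM of 20 or more, 94.6% lay within 0.2 of zero in 8/7, 87.8% in 9/7 and 83.8% in 10/7. The shares over all genes of that level were 91.7%, 80.5% and 89.2%. The members were thus somewhat closer to zero than other genes in 8/7 and 9/7 and somewhat farther from it in 10/7. Over the 4 libraries the median range of a member was 0.151, against 0.174 for all such genes.

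**Figure D2:**
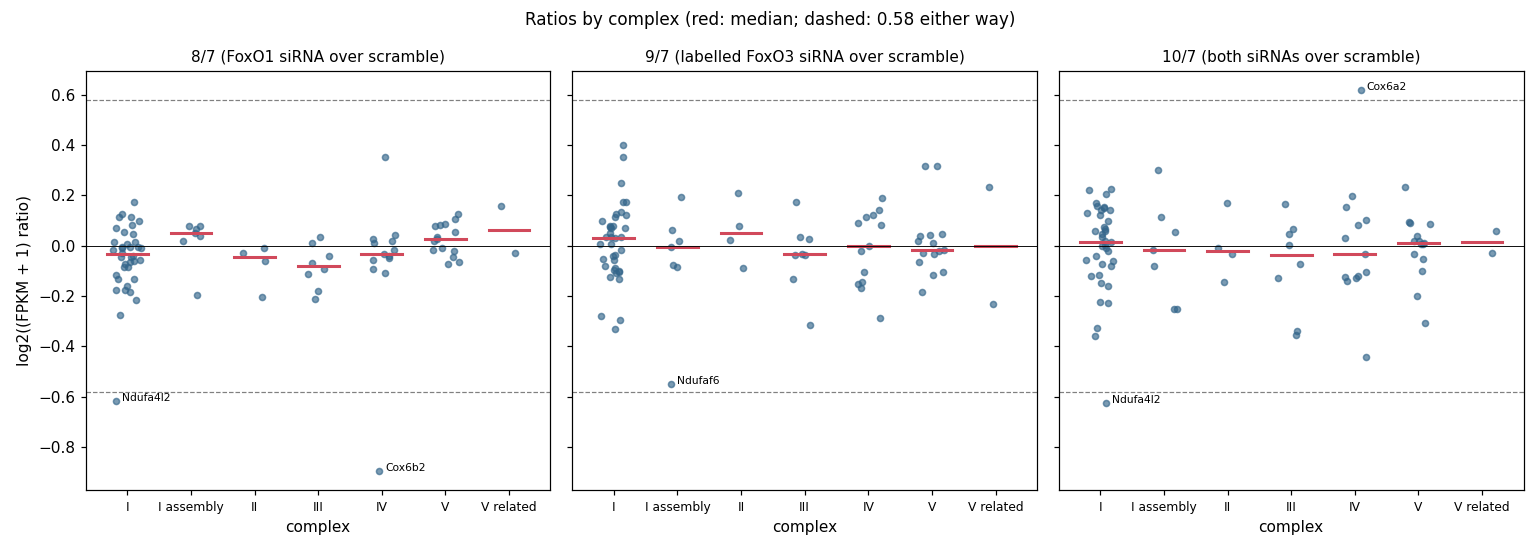
Ratio of every measured member by complex in 8/7, 9/7 and 10/7, with the median in red and dashed lines at 0.58 either way; V related stands for Atp5s and Atp5sl. Points gather around zero in every complex, and Cox6b2 at -0.90 in 8/7 is the farthest of all.

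The signs of the ratios were also counted, without a test. In 8/7, 52 of 87 members lay below zero, or 59.8%, against 51.8% of all measured genes. Complex I contributed 26 of its 38 genes, complex III 6 of 8 and complex II 4 of 4, whereas 6 of 15 complex V genes and 1 of 7 assembly factors lay below zero. Library 8 was the highest of the 4 libraries in 11 members, or 12.6%, against 25.6% of all measured genes. In both other comparisons 41 members, or 47.1%, lay below zero, against 54% of all genes in 9/7 and 54.3% in 10/7. Since library 7 is shared, 26 members, or 29.9%, were below it in all of libraries 8, 9 and 10, against 24.5% of all genes, and 21, or 24.1%, were above it in all of them, against 18.9%.

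**Figure D3:**
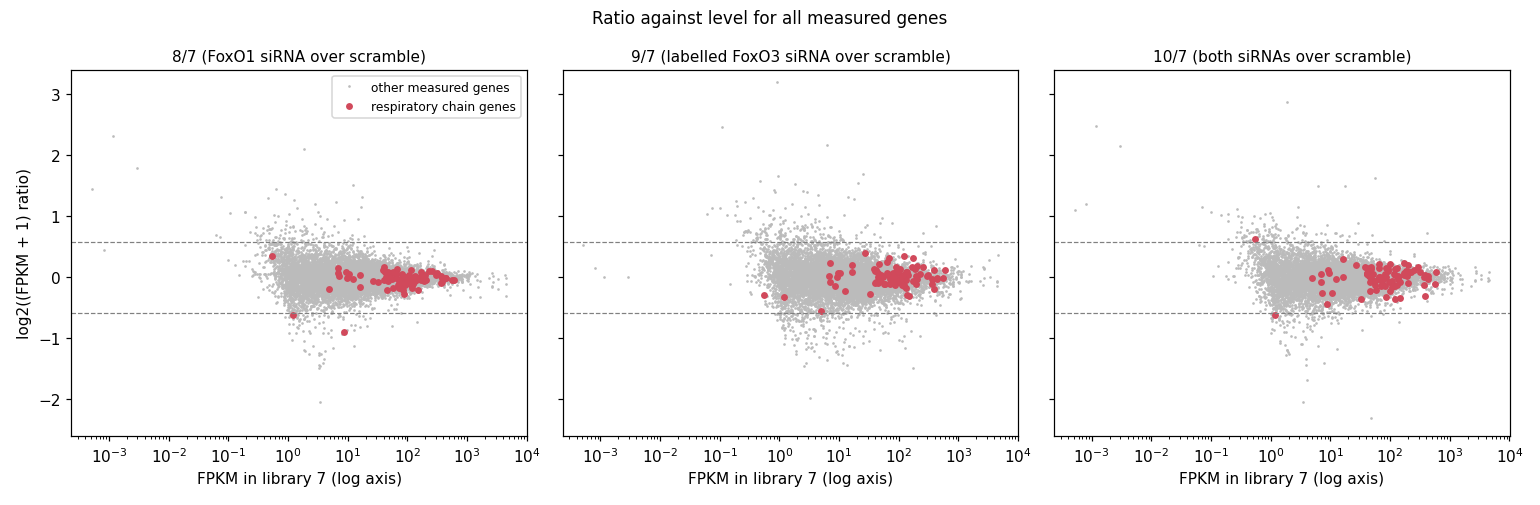
Ratio against FPKM in library 7 (log axis) for all measured genes, with the respiratory chain genes in red over the other genes in grey and dashed lines at 0.58 either way. The red points sit at high FPKM, where the grey cloud is narrow, and those past the dashed lines stand under an FPKM of 10.

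Complex I takes electrons from NADH. Its NADH-binding subunit Ndufv1 had an FPKM of 73.1 in library 8, 70.1 in library 9 and 68.8 in library 10, against 74.5 in library 7. Ndufs1, which carries iron-sulfur clusters, had 46.6, 45.0 and 43.3, against 41.2 in library 7, and its ratio of 0.17 was the highest of complex I in 8/7. Transcripts of both core subunits stayed close to their level in library 7. Ndufs7, which lies on the path to ubiquinone, had 39.1, 45.9 and 43.2, against 45.6 in library 7. Library 8 was the lowest for Ndufs7, with a ratio of -0.22.

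The widest spread among well expressed members also fell in complex I. Ndufv3, an accessory subunit beside the NADH site, had 25.4, 35.6 and 31.0, against 26.7 in library 7. Its ratio of 0.40 in 9/7 was the highest of any member there, and 8/7 and 10/7 gave -0.07 and 0.20. Ndufa1, a small subunit of the membrane arm, had 114, 155 and 134, against 121 in library 7, with ratios of -0.09, 0.35 and 0.14. In both genes the library labelled FoxO3 siRNA was the highest and library 8 the lowest. Ndufs8, a core iron-sulfur subunit, showed another order, with 30.4, 26.5 and 25.1 against 32.4 in library 7 and ratios of -0.09, -0.28 and -0.36. Ndufs5, an accessory subunit, had the highest ratio of complex I in 10/7, at 0.22, with 93.3, 93.1 and 115 against 98.3 in library 7. Ndufb6, an accessory subunit of the membrane arm, was also below library 7 in the 3 others, with 71.3, 79.5 and 69.1 against 86.6.

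Of the 7 assembly factors, which build complex I and are not part of it, 6 lay above zero in 8/7, all by less than 0.08. Ndufaf2, the most abundant, had 43.7, 39.2 and 43.1, against 41.4 in library 7, though 65.6% of its exonic bases are shared with genes on the opposite strand and strand use in counting is not given in the sources used here. Ndufaf4 had 16.6, 18.7 and 20.2, against 16.2 in library 7, and its ratios of 0.19 in 9/7 and 0.30 in 10/7 were the highest of the group. Ndufaf6 (chromosome 4, 11051045 to 11076205) was the lowest member of 9/7. It had an FPKM of 4.14, 3.03 and 4.84, against 4.90 in library 7, a ratio of -0.55 in 9/7 that did not reach the limit. Roughly 46, 34 and 54 fragments stand behind those values, against 54 in library 7, by an estimate from weakly expressed genes that is itself uncertain. Ndufaf1 was the lowest of the group in 10/7, at -0.25.

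Complex II, succinate dehydrogenase, also works in the tricarboxylic acid cycle. Sdha, its flavoprotein, had 72.4, 78.5 and 75.8, against 83.5 in library 7, and was the lowest complex II gene in 8/7, 9/7 and 10/7, with ratios of -0.20, -0.09 and -0.14. Sdhb, the iron-sulfur subunit, had 46.0, 47.8 and 46.8, against 47.0 in library 7. All 4 genes of the complex lay below zero in 8/7, by at most 0.20. Sdhc, a membrane anchor, had 45.0, 54.6 and 53.1, against 46.9 in library 7, with ratios of -0.06, 0.21 and 0.17. Sdhd, the other anchor, had ratios of -0.01, 0.08 and -0.03.

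Complex III passes electrons from ubiquinol to cytochrome c. Uqcrfs1, the Rieske iron-sulfur protein, had 51.4, 52.4 and 52.8, against 51.0 in library 7. The core protein Uqcrc2 had 80.4, 83.9 and 86.3, against 85.9 in library 7, and its partner Uqcrc1 had ratios of -0.07, -0.04 and -0.07. The transcript ratios of these 3 genes stayed within 0.1 of zero. Cyc1, the cytochrome c1 gene outside the rule, had 61.1, 51.3 and 56.2, against 59.8 in library 7, with a ratio of -0.22 in 9/7. Uqcrq, a small subunit near the quinone site, had 128, 119 and 117, against 148 in library 7, with ratios of -0.21, -0.32 and -0.34. Uqcr11, another small subunit, had 106, 110 and 94.2, against 120 in library 7, with ratios of -0.18, -0.13 and -0.35. Library 7 was the highest for both, so that the 3 ratios rest on its value. Uqcrb, the most abundant member of the complex, had 304, 303 and 335, against 297 in library 7, and Uqcrh, the hinge protein, had ratios of -0.04, 0.17 and 0.07.

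Complex IV, cytochrome c oxidase, reduces oxygen and holds the most abundant members. Cox8a was the highest of all members in each library, at 581, 652 and 636, against 598 in library 7. Cox4i1, the regulatory subunit, had 542, 554 and 523, against 561 in library 7. The ratios of both genes ran from -0.11 to 0.12. Cox5a and Cox5b, nuclear subunits around the catalytic core, had 133, 117 and 121, against 132 in library 7, and 113, 111 and 111, against 122. Cox6c had 206, 228 and 230, against 200 in library 7, and its ratio of 0.19 was the highest among measured genes of the complex in 9/7.

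Several complex IV subunits have tissue isoforms, and the ubiquitous form prevailed in each set. Cox4i2, the lung isoform of subunit 4, stood at 0.139 in library 8, was listed at 0 in libraries 9 and 10, and stood at 0.124 in library 7. The muscle and heart isoform Cox7a1 stood at 0.345 in library 8 and 0.170 in library 10, against 0.306 in library 7, and was highest in library 9, at a ratio of 0.27, while Cox7a2 exceeded 129 in each library. Cox7b2, Cox8b and Cox8c were listed at 0 in all 4 libraries. Those 5 genes are the members that did not count as measured. The nearest measured genes above the threshold were Ndufa4l2 and Cox6a2, whose highest FPKM was 1.19 and 1.37.

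Cox6b2 (chromosome 7, 4751792 to 4753094), known as the testis isoform of subunit 6b, was the exception among measured members. It had an FPKM of 4.18 in library 8, 7.70 in library 9 and 6.11 in library 10, against 8.65 in library 7. Library 8 was the lowest, at 48.4% of library 7, and library 10 stood at 70.4%. Its ratios were -0.90, -0.15 and -0.44, and the first was the largest of any member in any comparison. Its paralogue Cox6b1 had 382, 420 and 397, against 387 in library 7. Cox6b1 was thus the bulk of the 2 forms in every library. Roughly 41, 75 and 60 fragments stand behind the values of Cox6b2, against 85 in library 7. In the authors' deposited table for library 8, Cox6b2 had a p-value of 0.0238 and a q-value of 0.999. It was the only member with a deposited p-value under 0.05 there, where 1.23% of all tested genes had one. In the authors' deposited tables for libraries 9 and 10, 0 members had one, against 2.4% and 1.5% of all tested genes.

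The promoters of the pair are shown because one gene passed the limit in 8/7 and its paralogue did not. None of the 5 motifs was found in either, so there are no capitals.
Cox6b1 (chr7:30626065-30626364, minus strand): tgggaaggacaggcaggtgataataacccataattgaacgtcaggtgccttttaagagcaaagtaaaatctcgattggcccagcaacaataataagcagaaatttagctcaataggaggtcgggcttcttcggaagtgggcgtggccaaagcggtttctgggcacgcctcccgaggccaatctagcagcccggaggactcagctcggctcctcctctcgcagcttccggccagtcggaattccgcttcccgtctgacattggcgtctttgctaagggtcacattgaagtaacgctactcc
Cox6b2 (chr7:4753045-4753344, minus strand): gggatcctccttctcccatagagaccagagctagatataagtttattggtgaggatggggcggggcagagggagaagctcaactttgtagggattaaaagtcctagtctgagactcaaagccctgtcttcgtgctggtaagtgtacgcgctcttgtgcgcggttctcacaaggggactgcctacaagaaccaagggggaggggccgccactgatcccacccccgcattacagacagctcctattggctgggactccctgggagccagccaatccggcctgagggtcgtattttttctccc
The absence of a match says only that these letters are not in these windows.

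Cox6a2 (chromosome 7, 128205435 to 128206387), the heart and muscle isoform of subunit 6a, had 0.971, 0.265 and 1.37, against 0.542 in library 7. Its ratios were 0.35, -0.29 and 0.62, on roughly 14, 3.8 and 20 fragments against 7.8 in library 7. Libraries 8 and 10 were above library 7 and library 9 below it, all at levels that few fragments support. Its ubiquitous partner Cox6a1 had 341, 339 and 334, against 364 in library 7. Ndufa4l2 (chromosome 10, 127514967 to 127517154), a gene induced by hypoxia, had 0.429, 0.744 and 0.423, against 1.19 in library 7. Its ratios were -0.62, -0.33 and -0.63, on roughly 8.4, 15 and 8.3 fragments against 23 in library 7. Ndufa4, its abundant relative and now counted as a complex IV subunit, was above library 7 in all 3 others, with 272, 287 and 277 against 254. In the deposited data the loci of Cox6a2 and Ndufa4l2 span 69441 and 7506 bases, well beyond the positions given here. Such wide loci were found for 18 members, and their part in the levels was not tested.

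**Figure D4:**
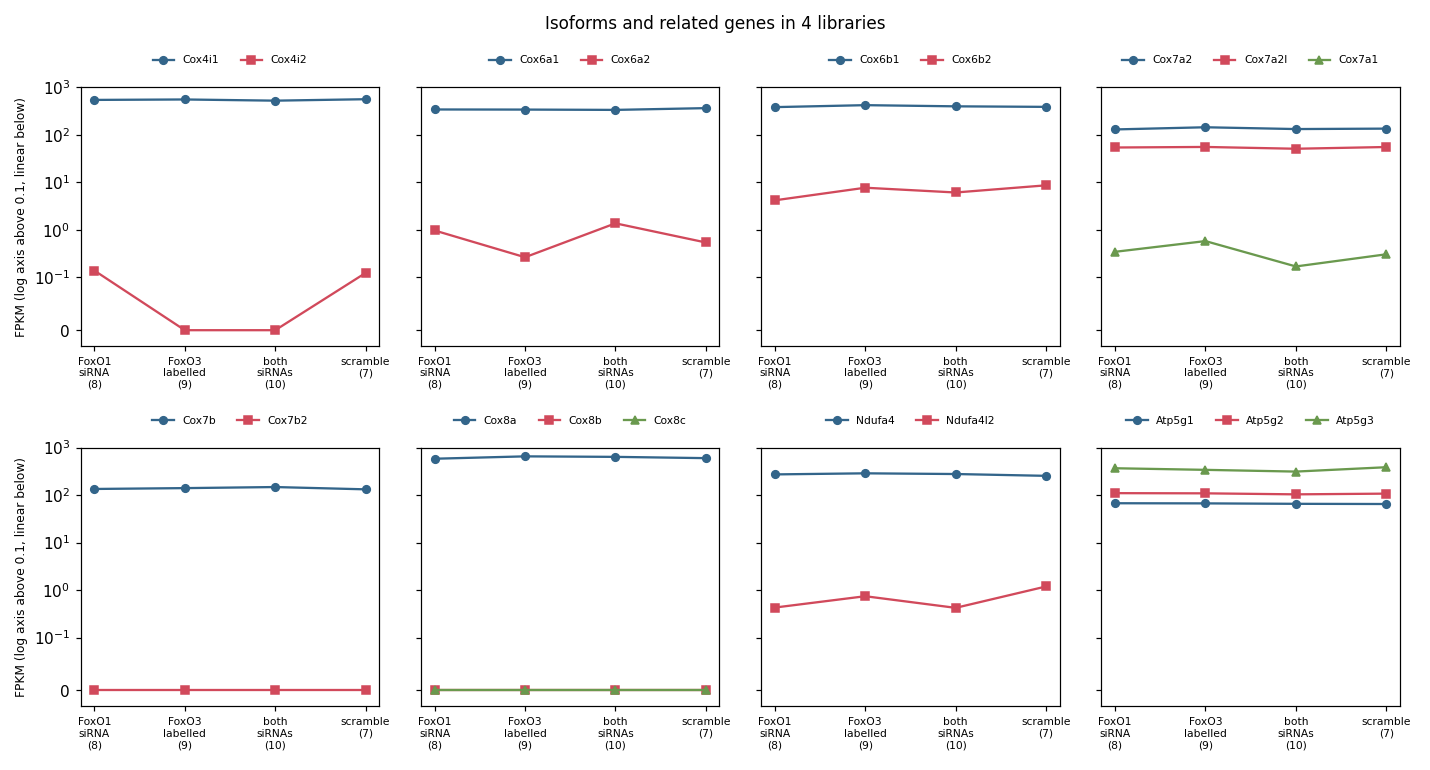
FPKM of isoforms and related genes in libraries 8, 9, 10 and 7 (log axis above 0.1, linear below), with lines joining the values of a gene. The ubiquitous forms run nearly level at the top of each panel, while Cox6b2, Cox6a2, Ndufa4l2, Cox7a1 and Cox4i2 stand far lower and vary more between libraries.

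In complex V, all 15 ratios in 8/7 lay between -0.07 and 0.13. Atp5a1 and Atp5b form the catalytic head. Atp5a1 had 427, 426 and 421, against 430 in library 7, and Atp5b had 373, 359 and 368, against 366. Atp5c1, the central stalk, had 184, 195 and 196, against 193 in library 7. Atp5o, which ties the head to the peripheral stalk and was the most abundant gene of the complex, had 433, 429 and 446, against 438 in library 7. These 4 genes differed from library 7 by less than 0.07 in each comparison. They are only part of the head and its links, and 35.6% of the exonic bases of Atp5o are shared with genes on the opposite strand. Atp5d and Atp5e, also grouped with the head, went farther from zero. Atp5d had ratios of -0.02, -0.12 and -0.10, and Atp5e had 0.08, -0.11 and -0.20.

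The genes Atp5g1, Atp5g2 and Atp5g3 encode the same mature ring subunit, and they kept 1 order in all 4 libraries. Atp5g3 had 366, 339 and 312, against 385 in library 7, with ratios of -0.07, -0.19 and -0.31 that were the lowest of the complex in each comparison. Atp5g2 had 110, 109 and 103, against 107 in library 7, and Atp5g1 had 67.2, 66.8 and 65.4, against 64.8. Atp5g3 was thus below library 7 in the 3 others, and Atp5g2 in library 10. Atp5l and Atp5j2, small membrane subunits, were highest in library 9, where Atp5l had 85.1 against 67.9 in library 7, and Atp5j2 had 215 against 172, each a ratio of 0.32.

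Values from outside libraries 7 to 10 exist for 4 members, because the authors chose those genes on the same libraries for their effect. They are therefore a description only. Ndufaf6 had 6.87 with Wnt3a in library 2, against 4.85 with buffer in library 1, a ratio of 0.43, and 3.55 in library 6, against 2.95 in library 5, a ratio of 0.20. Ndufa4l2 had 0.176 with both siRNAs in library 4, against 0.441 with scramble siRNA in library 3, a ratio of -0.29 without H2O2 that has the same sign as its 10/7. Cox6a2 stayed under 0.5 in libraries 1, 2, 5 and 6 and Cox7a1 under 0.9 in libraries 3, 4, 7 and 10.

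The mitochondrially encoded subunits, the partners of these genes in the same complexes, were higher in several cases in the library labelled FoxO3 siRNA. All 13 were measured, and 5 of them were higher past 0.58 in 9/7, where 1.7% of all measured genes were. The counts were 1 in 8/7 and 2 in 10/7, and 0 were lower in any comparison. Their median ratios were -0.14, 0.28 and -0.05. The genes fell into levels far apart. Those past the limit, mt-Co2, mt-Co3, mt-Atp6, mt-Atp8 and mt-Nd4l, stayed under an FPKM of 10 in all 4 libraries. Mt-Nd4l had 0.881, 3.84 and 0.851, against 0.797 in library 7. It thus counted as measured through library 9 alone, the library in which it is high. Whether values so far under those of the abundant mitochondrial genes are true levels was not tested. Mt-Atp8, an ATP synthase subunit, had 6.01, 9.18 and 7.57, against 2.85 in library 7. By contrast mt-Co1, the catalytic subunit of complex IV, had 2897, 4007 and 3235, against 3299 in library 7, with ratios of -0.19, 0.28 and -0.03. Mt-Nd6 of complex I had 3684, 5890 and 4414, against 4547 in library 7, with a ratio of 0.37 in 9/7. The 7 abundant genes lay between -0.33 and -0.10 in 8/7, between -0.14 and 0.37 in 9/7 and between -0.18 and -0.03 in 10/7. Whether nuclear and mitochondrial partners differ was not tested.

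The limit was passed either way by 1.72% of all measured genes in 8/7, 3.54% in 9/7 and 1.91% in 10/7. Of 38 further assembly factors, 0 passed the limit in any comparison, with medians of -0.03, -0.02 and -0.03. The same held for 19 tricarboxylic acid cycle enzymes, for 9 measured carriers and chain partners such as cytochrome c (Cycs) and Cyc1, and for 17 measured regulators of respiratory genes. Among 77 mitochondrial ribosomal protein genes only Mrpl19 passed, in 9/7 at 0.60. The 12 measured genes of coenzyme Q synthesis had medians of 0.008, -0.18 and -0.005. In 9/7, 9 of them lay below zero, where 54% of all measured genes did. Among these 9 were Coq4 at -0.47 and Pdss1, which makes the side chain, at -0.41. Coq4 was also below library 7 in 8/7 and 10/7, at -0.37 and -0.51. Adck3, a kinase-like gene of the same list, passed in 8/7 at 1.31 and in 9/7 at 1.14, with 1.66, 1.37 and 0.539 against 0.0746 in library 7, and it reached the FPKM of 1 only in libraries 8 and 9. The regulators whose motifs were searched were present. Nrf1 had 20.5, 18.5 and 17.0, against 18.9 in library 7, and Gabpa, the ETS factor, had 78.8, 80.7 and 81.3, against 77.1. Yy1 had 49.2, 59.9 and 59.0, against 50.5 in library 7, with a ratio of 0.24 in 9/7. The coactivator Ppargc1a stayed under 1 FPKM, with 0.553, 0.895 and 0.581 against 0.602 in library 7.

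**Figure D5:**
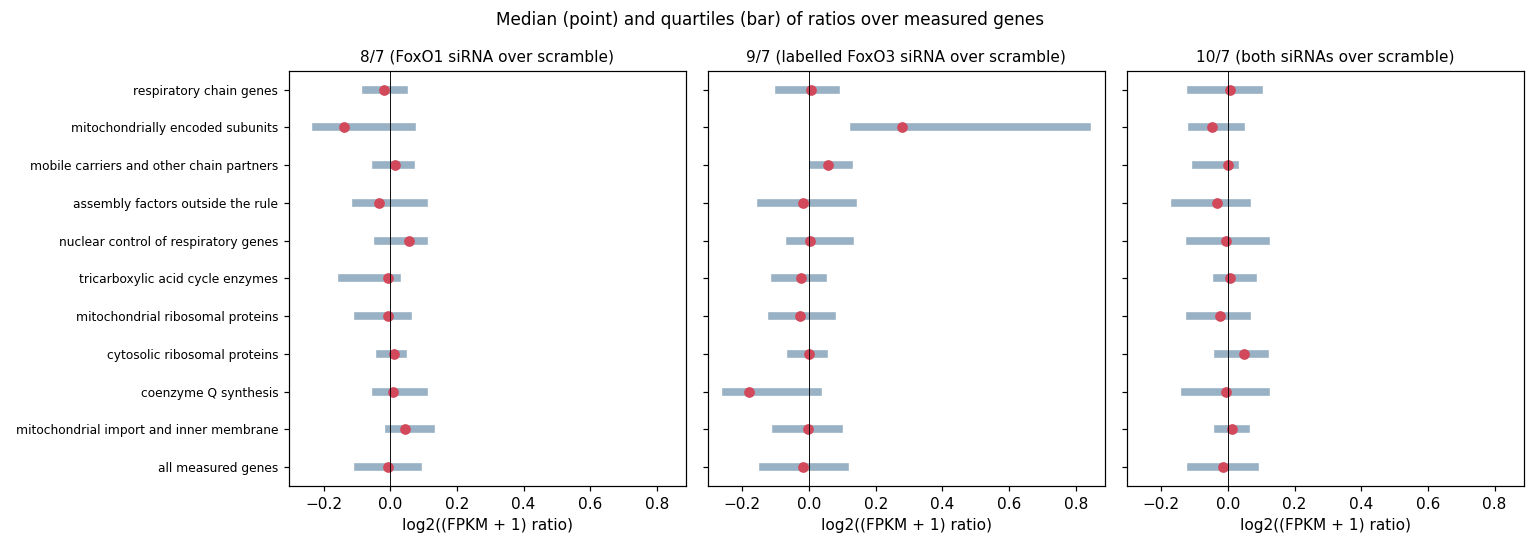
Median (point) and quartiles (bar) of the ratios in 8/7, 9/7 and 10/7 for the respiratory chain genes, 9 lists around them and all measured genes. The respiratory chain genes have medians near zero in all 3 comparisons, while in 9/7 the mitochondrially encoded subunits lie at 0.28 and the genes of coenzyme Q synthesis at -0.18.

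Sequence shared with other genes limits some levels. Of the 92 members, 39 have a stretch of at least 100 bases that is at least 95% identical to another annotated gene. In some, such as Atp5a1 with Haus1 and Cox4i1 with Emc8, the other gene overlaps the member's own locus. None of the 39 passed 0.58 in any comparison. Of 48 measured members without such a stretch, 0 were higher and 2 lower in 8/7. In 9/7 it was 0 either way, and in 10/7 1 was higher and 1 lower. Of all measured genes, 0.924% were higher and 0.792% lower in 8/7, 1.7% and 1.84% in 9/7, and 1.04% and 0.874% in 10/7. Whether members with and without such a stretch differ was not tested. Cox7a2l, a factor of supercomplex assembly, had 54.1, 55.5 and 50.9, against 55.4 in library 7. Gm6969, which matches it over 342 bases at 98.0% identity, had 363, 389 and 429, against 366 in library 7. Reads of the pair may have been divided between them, so the level of Cox7a2l is uncertain. Gm12338, identical to 192 bases of Cox7c, had 40.7, 45.3 and 59.4, against 58.8 in library 7, and Gm15920 matches Ndufa12 over 402 bases and had 20.2, 15.5 and 15.0, against 22.8.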

How the data were processed

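RNA sequencing of total RNA was described for libraries 7 to 10, with 4 members also in the lists for libraries 1 to 6. Per the submitters' processing notes, TopHat2, Cufflinks and Cuffdiff were used on the mm10 build, with no version given; per the labels, reads were 100 nt. For settings, annotation and strandedness the sources used here give nothing. Per the file headers, the 3 all-gene tables hold deposited FPKM values of library 8, 9 or 10 beside library 7. They also hold the p-value and q-value the authors obtained for each gene, which set 1 library against another and say nothing about spread within a condition, and which are quoted as theirs. Library 7 was scaled slightly differently in each table, by medians of 1.00217 and 1.00334 against the first, so ratios were formed within a table, and its levels are those of the table with library 8. Exact zeros may be failed estimates.

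A pseudocount of 1 FPKM was added before each log2 ratio of the deposited FPKM, which understates changes of weakly expressed genes. With 1 library per group no test was made. Counts used 0.58 either way. The members and lists were chosen with earlier results of these data known. Named genes were those past 0.58, the highest and lowest of each complex in a comparison, the most abundant, the core subunits, isoform sets, members listed at 0 in some libraries and members of the deposited lists; single genes that fall under this rule may be not reported here, and the other genes named were chosen after their values were seen. Gene positions are from GENCODE M21 by Ensembl identifier; near-identical stretches came from BLAST+ 2.17.0 (at least 95% identity over 100 bases). The rough number of fragments took 1 fragment as 0.0475 FPKM times kilobases, from 1066 genes with a single transcript. It used the median length of a gene's annotated transcripts. Relative depths used at least 2868 weakly expressed genes. Python 3.11.15, numpy 2.4.6 and pandas 2.3.3 were used, and the calculations were tested on simulated data.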

Additional observations from a re-analysis of the deposited data

Results flagged for a closer look

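For 2 weakly expressed isoforms of complex IV, ratios with and without H2O2 had opposite signs, in single libraries under 1 FPKM. The 2 ratios of Cox6a2 are not known to be the same contrast, since the Wnt entry of library 5 is empty. Both genes were chosen by the authors on the same libraries for their effect, and the differences were not tested. Cox6a2 had a ratio of -0.27 for Wnt3a against an empty Wnt entry under H2O2 (6/5) and of 0.086 for Wnt3a against buffer without H2O2 (2/1). Cox7a1 had a ratio of -0.16 for both siRNAs against scramble siRNA under H2O2 (10/7) and of 0.29 without H2O2 (4/3). Roughly 1.6 fragments stand behind Cox7a1 in library 10, against 2.8 in library 7. For the other libraries named here no such estimate was made.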

How the results depend on the processing

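The median ratio of the members and all 162 medians by complex stayed within 0.05 of their reported values. In 9/7, 2 medians that lie next to zero changed sign. That of the assembly factors, -0.004, became 0.007 over genes with FPKM of 5 or more and 0.013 less the median of all genes. That of Atp5s and Atp5sl, -0.0005, became 0.004 with a pseudocount of 0.1 and 0.017 less that median. Counts past the limit moved, since they rest on weakly expressed genes. A pseudocount of 5 gave 0 members in 8/7 and 0 in 10/7, where 0.239% and 0.214% of all measured genes passed, against 2 members in each with a pseudocount of 1. A pseudocount of 0.1 gave 3 in 9/7 (Cox6a2, Ndufa4l2 and Ndufaf6), against 0, where 7.1% of all genes passed. Keeping genes with FPKM of 5 or more gave 1 in 8/7 (Cox6b2) and 0 in 10/7, where 0.665% and 0.76% passed. A limit of 0.32 gave 4 in 9/7 and 7 in 10/7, where 13.9% and 9.32% of all measured genes passed. A limit of 1 gave 0 in 8/7 and 0 in 10/7, where 0.338% and 0.297% of all measured genes passed. No paired analysis was possible because each group is 1 library and no test was made. For Cox6a2 and Ndufa4l2, with at most about 23 fragments in each library by a rough estimate, depth limits the ratio.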
